A study of Mus musculus with 6 samples.

Results

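H3K56ac peaks at bidirectional promoters were selected from the merged peak set of mouse embryonic stem cells by position and width. A peak was chosen when it was wider than 320 bp and narrower than 3 kb and its midpoint lay no farther than 1 kb from both 5′ ends of a divergent pair, meaning a minus-strand and a plus-strand protein-coding gene that point away from each other with at most 1000 bp between their starts. This gave 452 of 11106 peaks (4.07%), or 8.82% of the 5122 peaks of permitted width with a midpoint within 1 kb of any protein-coding 5′ end. The comparison class comprised 4297 promoter peaks of single genes, with 1 protein-coding 5′ end in reach of the midpoint. The remaining 373 promoter peaks had other arrangements, such as tandem or overlapping starts.

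H3K56ac is histone H3 acetylated at lysine 56, and SIRT6 is a deacetylase that removes this mark. ChIP-seq libraries of the mark came from V6.5 cells, an embryonic stem cell line grown undifferentiated on feeder cells with LIF. All cells were infected with lentivirus, expressing a scrambled shRNA in the Scramble group or a Sirt6 shRNA in the Sirt6KD group, and each group had 2 H3K56ac libraries and 1 input library. Because the processed file was 1 set of merged positions on mm10 with a score of 0 throughout, a difference between Scramble and Sirt6KD cells could not be measured, read depth is unknown, and the values below describe where and how widely the pooled set was called. Of 8 stem cell markers, including Pou5f1, Nanog and Sox2, 7 had a base of a peak within 1 kb of their 5′ end, and 4 had a midpoint there. None of 8 feeder fibroblast markers, including Col1a1, Thy1 and Twist1, had a peak base in that range. Over 21911 protein-coding gene names, 7234 had a peak base within 1 kb of the 5′ end and 6526 a midpoint.

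In a bidirectional promoter, the starts of a pair of genes face away from each other across a short shared stretch of DNA, so that 1 nucleosome-depleted region can serve transcription in both directions. Such promoters are commonly rich in CpG dinucleotides, poor in TATA boxes, and enriched in housekeeping functions such as DNA repair and mitochondrial metabolism. Many promoters of single genes also start a short noncoding transcript in the opposite direction, and histone acetylation typically marks the nucleosomes that flank active starts rather than the depleted stretch itself.

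To show what the shared stretch looks like, the bases between both 5′ ends are printed for 8 pairs with a member peak, on the plus strand of mm10 from the minus-strand to the plus-strand gene. Hadha/Hadhb was the member among a list of well-known divergent pairs. The other 7 were chosen after their values were seen, to illustrate a gene group or a motif, and their peaks were 1300 to 2896 bp wide. Capitals mark matches to a short motif on either strand, in this case CCAATCA (NF-Y), CCGGAAG (ETS factors), AAGATGGCG (YY1), GGGGCGGGG (SP1) or CACGTG (E-box).
Hadha/Hadhb, chr5:30155163-30155247: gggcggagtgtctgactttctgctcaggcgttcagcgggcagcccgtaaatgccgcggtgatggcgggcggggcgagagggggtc
Prpf38a/Orc1, chr4:108579337-108579422: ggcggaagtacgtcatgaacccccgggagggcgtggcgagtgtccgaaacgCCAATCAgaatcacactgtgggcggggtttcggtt
Ncapd2/Mrpl51, chr6:125191702-125191800: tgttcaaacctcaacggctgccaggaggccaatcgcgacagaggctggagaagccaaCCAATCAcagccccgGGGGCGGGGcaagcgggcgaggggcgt
Uqcrq/Gdf9, chr11:53430832-53431022: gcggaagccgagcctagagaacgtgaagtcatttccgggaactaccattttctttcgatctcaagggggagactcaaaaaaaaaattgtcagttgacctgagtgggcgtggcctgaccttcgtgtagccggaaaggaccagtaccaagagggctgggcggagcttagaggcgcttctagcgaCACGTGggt
Gtf2e1/Rabl3, chr16:37539790-37539884: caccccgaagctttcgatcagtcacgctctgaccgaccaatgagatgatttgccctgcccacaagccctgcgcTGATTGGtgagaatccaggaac
Kars/Terf2ip, chr8:112011324-112011397: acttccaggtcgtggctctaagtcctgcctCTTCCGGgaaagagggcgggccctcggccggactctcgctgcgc
Acot13/Tdp2, chr13:24831541-24831678: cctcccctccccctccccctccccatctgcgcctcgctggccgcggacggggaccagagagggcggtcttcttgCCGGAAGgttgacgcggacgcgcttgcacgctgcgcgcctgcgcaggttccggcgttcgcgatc
Idh3g/Ssr4, chrX:73786898-73787027: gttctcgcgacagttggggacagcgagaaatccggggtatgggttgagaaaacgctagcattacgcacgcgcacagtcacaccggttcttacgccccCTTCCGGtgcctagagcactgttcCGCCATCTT

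The Hadha/Hadhb stretch held 9 CpG dinucleotides in 85 bases, with a GC content of 69.4% and an observed/expected CpG ratio of 0.981, and none of the 10 motifs searched. Uqcrq/Gdf9 had the lowest GC content of the 8, at 53.9%. In Idh3g/Ssr4 an ETS and a YY1 match, both on the minus strand, lay in the part nearest to Ssr4, which encodes a subunit of the translocon-associated protein complex.

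The members covered 452 different pairs and 904 genes on 20 chromosomes. For 431 members the pair supplied the only protein-coding 5′ ends within 1 kb of the midpoint, and 21 members had a further one. In 40 members at least 1 gene carried a provisional name of the Gm or Rik type. The separation of the 5′ ends had a median of 106.5 bp (quartiles 56 and 197.25 bp) and ran from 1 bp, at Bag4/Lsm1 and Slc7a6os/Prmt7, to 978 bp at Zfyve26/Rad51b. Lsm1 acts in mRNA decapping, Prmt7 is an arginine methyltransferase, and Rad51b acts in homologous recombination.

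Since width was part of the selection, the members nearest to its limits are given as a description. The widest were Ift80/Smc4 at 2993 bp, Zfyve26/Rad51b at 2980 bp and Cib1/Gdpgp1 at 2945 bp, where Smc4 encodes a core subunit of condensin. Just above the limit lay Dbf4/Slc25a40 at 3003 bp, Rsrc2/Kntc1 at 3006 bp and Gm27021/Cox4i1 at 3031 bp. The narrowest members were Sclt1/D3Ertd751e at 386 bp, Ndufa1/Rnf113a1 at 405 bp and Fbxo9/Ick at 409 bp, and the single peak below the limit was Exoc2/Gm5447 at 281 bp. Without limits the same geometry held 509 peaks, of which 56 were 3 kb or wider, with Dido1/Gid8 at 6066 bp and Wrap53/Trp53 at 5200 bp as the widest. The nearest pair beyond the separation limit with a peak placed in this way was Slc26a8/Mapk14, 1096 bp apart with a peak of 574 bp.

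Among all 754 annotated divergent pairs, which comprised 1487 genes or 6.78% of 21938 protein-coding genes, 452 (59.9%) had a member peak. A further 57 pairs had a peak of the same geometry outside the width limits, and 17 shared their peak with an overlapping pair to which it was assigned. At 37 pairs a midpoint was within 1 kb of 1 end only, and at 25 pairs peak bases but no midpoint lay in reach. No peak base lay within 1 kb of either end at 166 pairs (22.02%). The median CpG ratio around the pair centre was 0.653 at these 166 pairs and 0.785 at pairs with a member peak. On the X chromosome 4 of 20 pairs (20%) had a member, the lowest share among the chromosomes with pairs, and on the autosomes the share ran from 46.2% on chromosome 3 to 76.6% on chromosome 4.

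To ask whether genes of divergent pairs carried a peak more often than other genes, both groups were taken from the annotation and each gene was judged by a midpoint of any width within 1 kb of its own 5′ end. A peak was found at 1073 of 1487 pair genes (72.2%, Wilson 95% confidence interval 69.8 to 74.4%) and at 4758 of 19174 genes with no other protein-coding start within 1 kb (24.8%, 24.2 to 25.4%). The odds of carrying a peak were 7.85 times higher in pair genes (raw p = 6.06e-294 by a two-sided Fisher's exact test, which was used throughout, and adjusted p = 1.09e-292 over the family of 18 tests). The 2 genes of a pair can share a peak, and with 1 gene per pair, the plus-strand one, the share was 72.0%. This does not remove a further limit. A peak at the partner's start also counted, so a pair gene had 2 starts that could bring a peak and a lone gene 1. The part of this in the difference was not tested. The intervals cover counting error only, and since neighbouring genes and peaks are not independent the p-values are too small.

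The gap was narrower among CpG-rich promoters, defined as those with a CpG ratio over 0.6 within 500 bp of the 5′ end. There, 981 of 1250 pair genes (78.5%) and 3842 of 7916 lone genes (48.5%) had a peak, a difference of 29.9 percentage points against 47.3 without the restriction (Fisher's exact test, p = 1.30e-91). Lone genes with a divergent noncoding start within 1000 bp lay between these groups, with 356 of 752 genes (47.3%) carrying a peak and, among CpG-rich ones, 321 of 573 (56.02%). Pair genes exceeded them by 24.8 and 22.5 percentage points (Fisher's exact test, p = 3.40e-30 and p = 4.71e-22), in comparisons added after the data were seen. Below a ratio of 0.4 peaks were rare in each group, with 7 of 74 pair genes (9.46%), 7 of 103 lone genes with such a noncoding start (6.80%) and 212 of 8410 other lone genes (2.52%), and the first 2 intervals overlapped.

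**Figure D1:**
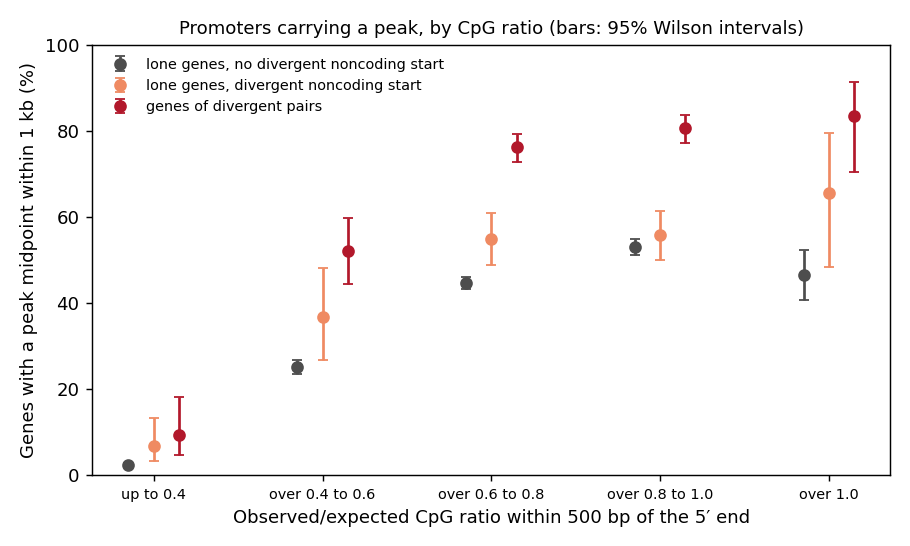
Share of genes with a peak midpoint within 1 kb of the 5′ end (vertical axis, %) in 5 bins of the observed/expected CpG ratio (horizontal axis), for genes of divergent pairs, lone genes with a divergent noncoding start and other lone genes, with 95% Wilson intervals as bars. In the bin from 0.6 to 0.8 the shares were 76.2%, 55.0% and 44.7%, and from 0.8 to 1.0 they were 80.6%, 55.9% and 53.0%.

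The separation of the starts and a midpoint near both were part of the selection, so their relation is given as a description without a test. With 5′ ends at most 300 bp apart, 455 of 618 pairs (73.6%) had such a peak of any width, against 71 of 136 pairs (52.2%) farther apart. The share was 76.3% up to 100 bp, 69.4% from 101 to 200 bp, 59.0% from 201 to 300 bp, 63.6% from 301 to 500 bp and 38.6% beyond. Distant ends leave a smaller window in which a midpoint is near both, and counting instead any peak base between the ends gave 63.4% and 53.7%.

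Width limits were part of the selection and were the same for single genes, so widths within them are given as a description. They are widths after merging, which may include bases between joined peaks, and no 2 peaks of the set were closer than 1000 bp. The median width of members was 1804 bp (quartiles 1032.75 and 2274 bp, n = 452) against 1076 bp (quartiles 697 and 1780 bp, n = 4297). Above the pooled median of 1126 bp lay 327 members (72.3%) and 2047 single-gene peaks (47.6%). Peaks of 2 kb or more made up 183 members (40.5%) and 18.1% of single-gene peaks, and peaks under 1 kb made up 24.6% and 46.2%. With no width limit in either class, so that width took no part in the choice, 377 of 509 peaks at divergent pairs (74.1%) and 2244 of 4734 single-gene peaks (47.4%) lay above their pooled median, with median widths of 1956 and 1111 bp (p = 2.77e-31 by Fisher's exact test). These 509 peaks include the 452 members, so this is not a separate set of peaks.

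The closest class was that of 315 single-gene peaks with a divergent noncoding start, which had a median width of 1407 bp (quartiles 792 and 2126 bp). Above the pooled median of 1711 bp lay 54.9% of members and 42.2% of this class. Without width limits the shares were 56.2% of 509 and 41.2% of 357 peaks, with medians of 1956 and 1587 bp (p = 1.80e-05 by Fisher's exact test). Among CpG-rich promoters the median width of single-gene peaks was 1121 bp, and the excess of members above the pooled median was 24.6 percentage points, close to the 24.7 points without that restriction. Within the members, width had a Spearman correlation of 0.435 with the GC content of the central 400 bp. The correlation was 0.171 with the CpG ratio around the pair centre and -0.02 with the separation of the starts. These values describe n = 452 peaks of 1 merged set. The GC window lay at the peak midpoint and the CpG window at the pair centre, so their correlations are not directly comparable. Members covering both starts had a median width of 2076.5 bp and a median midpoint offset of 163.5 bp from the pair centre. For members covering neither start, these medians were 793.5 bp and 608.75 bp. The part of midpoint position in the GC correlation was not tested.

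**Figure D2:**
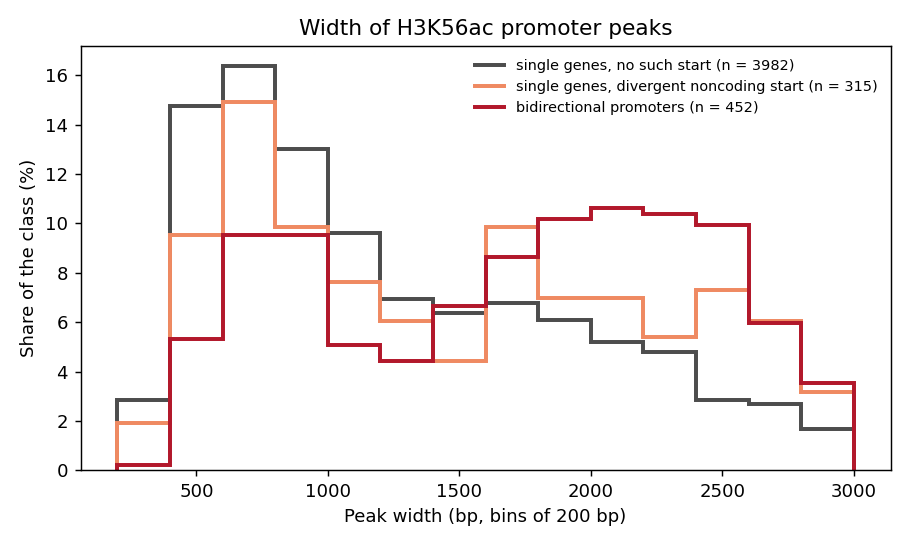
Peak width (horizontal axis, bins of 200 bp) against the share of each class (vertical axis, %) for bidirectional promoters, single genes with a divergent noncoding start and other single genes. The single-gene classes peaked below 1 kb, whereas 40.5% of the bidirectional promoter peaks were at least 2 kb wide.

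The classes differed most in coverage on the side where a single gene has no partner. Member peaks reached a median of 888 bp past a 5′ end into each gene body (quartiles 577.5 and 1113 bp, 904 genes), and single-gene peaks 966 bp (quartiles 665 and 1227 bp). Upstream of the 5′ end single-gene peaks reached 363 bp at the median, with 742 bp where a noncoding gene started there and 316.5 bp where none did. Positions were part of the selection, so these values are a description without a test. At 500 bp to the left of the pair centre, in the minus-strand gene, 81.2% of member peaks covered the base, whereas at the same distance upstream of a single gene 65.4% of peaks with a divergent noncoding start and 43.7% of the others did. At 500 bp to the right the 3 classes had 77.0%, 77.1% and 78.3%.

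**Figure D3:**
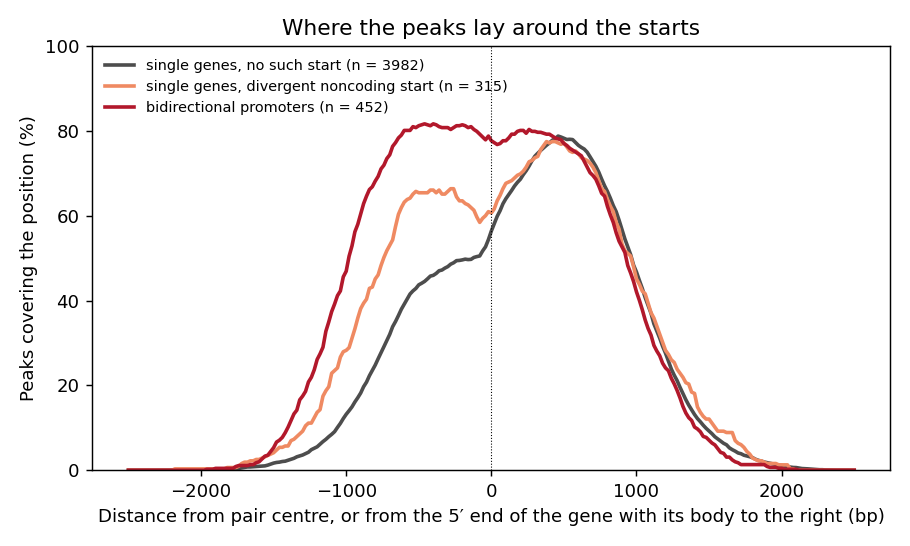
Share of peaks covering each position (vertical axis, %) against the distance in bp from the pair centre or from the 5′ end of a single gene, with the plus-strand gene or the single gene to the right. Coverage is that of merged peaks, which may include bases between joined peaks. At the start itself the shares were 77.7%, 60.6% and 56.4% for bidirectional promoters, single genes with a divergent noncoding start and other single genes, by 400 bp to the right they had come together at 79.2%, 77.1% and 77.1%, and at 500 bp to the left they were 81.2%, 65.4% and 43.7%.

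Most members spanned both starts. In 330 members (73.0%) the peak covered both 5′ ends, with a median width of 2076.5 bp and a midpoint 163.5 bp from the pair centre at the median. Peaks on the 2 sides of a promoter may have been joined in merging. Coverage of both ends therefore does not show that the bases between the starts were themselves called. At Hadha/Hadhb, which encode the subunits of the mitochondrial trifunctional protein of fatty acid oxidation, the peak chr5:30154165-30156359 was 2195 bp wide and reached 997 bp into Hadha and 1111 bp into Hadhb. The reach into the genes was within 2-fold on both sides in 254 of the 330 spanning members. Across all 452 members, the reach on one side had a Spearman correlation of 0.0598 with that on the other.

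The other members were narrow and one-sided. In 46 the peak covered 1 of the 5′ ends and in 76 it covered neither, and these 122 members had a median width of 812.5 bp, of which 74 lay on the side of the minus-strand gene and 48 on that of the plus-strand gene. The 76 that covered neither end had a median offset of 608.75 bp from the pair centre and a median separation of 87.5 bp, and each lay wholly downstream of 1 of the starts. Their pairs were CpG-rich in 93.4% of cases, against 92.4% of the spanning members. Ndufa1/Rnf113a1 is an example, with a peak of 405 bp that ended 325 bp before the start of Rnf113a1 on the side of Ndufa1, a subunit of respiratory complex I. At Lig4/Abhd13, in contrast, a peak of 1988 bp covered both ends but reached 1891 bp into Lig4, the ligase of non-homologous end joining, and 75 bp into Abhd13.

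**Figure D4:**
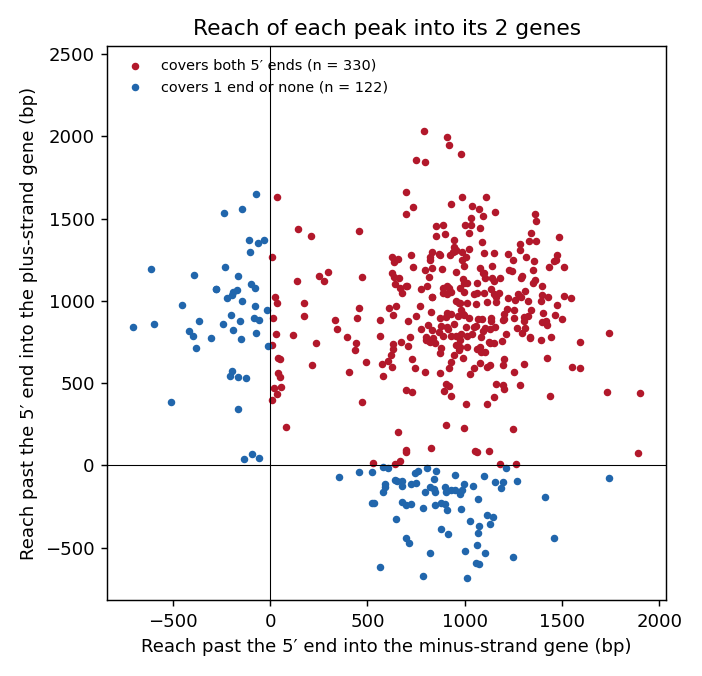
Reach of each member peak past the 5′ end into the minus-strand gene (horizontal axis, bp) and into the plus-strand gene (vertical axis, bp), where negative values mean that the peak ended before that 5′ end. The 330 peaks that covered both ends lie to the upper right of the zero lines, and the 122 others extend along 1 gene.

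Genes of the DNA repair and replication list were members through 17 of 99 genes (17.2%), while 4.13% of all protein-coding genes were in member pairs. In this list 26.3% of genes were in divergent pairs at all, against 6.78% of all genes. Of their 27 divergent pairs 17 had a member peak, beside 59.9% of all annotated pairs, and the median width was 1866 bp. Examples in order of width were Zfyve26/Rad51b, Xpc/Lsm3 (2537 bp), Orc3/Rars2 (2445 bp) and Prpf38a/Orc1 (2393 bp). Xpc encodes the damage sensor of global nucleotide excision repair, and Orc1 and Orc3 encode subunits of the origin recognition complex. Hscb/Chek2 had a peak of 2096 bp, Palb2/Dctn5 one of 1831 bp and Emc3/Fancd2 one of 1772 bp, where Chek2 is a checkpoint kinase, Palb2 the partner of BRCA2 and Fancd2 a Fanconi anemia protein. The peak at Palb2/Dctn5 reached 1284 bp into Palb2 and 490 bp into Dctn5, a dynactin subunit.

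The respiratory chain list had the most members. Of 103 genes of the respiratory chain and its assembly factors, 24 were in divergent pairs (23.3%) and 22 in member pairs (21.4%). The other 2 pairs had peaks outside the width limits. Their widest members were Atp5h/Kctd2 (2799 bp), Uqcrq/Gdf9 (2585 bp), Sdhd/Timm8b (2426 bp) and Ndufa2/Ik. Atp5h encodes a subunit of ATP synthase, Uqcrq one of complex III and Sdhd a membrane anchor of complex II. The complex II gene Sdha was a member too, at Sdha/Ccdc127 with 1968 bp. Some partners had unrelated functions, such as Gdf9, an oocyte growth factor. Of 78 mitochondrial ribosomal protein genes, 23.1% were in divergent pairs and 14 (17.9%) in member pairs, through 14 of 18 divergent pairs. The widest of these were Mrpl54/Apba3 (2932 bp), Ncapd2/Mrpl51 (2711 bp) and Mrpl40/Hira (2484 bp). Ncapd2 encodes a condensin subunit and Hira a chaperone of the histone variant H3.3.

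Of 75 genes of the transcription machinery, 26.7% were in divergent pairs and 15 (20%) in member pairs, through 15 of 20 divergent pairs. The widest were Polr2l/Tspan4 (2827 bp), Polr1c/Yipf3 (2723 bp), Rad17/Taf9 (2509 bp) and Gtf2e1/Rabl3 (2109 bp), where Polr2l and Polr1c encode subunits of RNA polymerases, Taf9 a subunit of TFIID and Gtf2e1 a subunit of TFIIE. Of 37 tRNA synthetase genes 4 were in member pairs, among them those of Orc3/Rars2, S100pbp/Yars (1608 bp) and Kars/Terf2ip (1300 bp), where Terf2ip encodes a telomere protein of the shelterin complex. The peak at S100pbp/Yars lay within Yars, reaching 1647 bp into that gene and ending 73 bp short of S100pbp.

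The shares of the remaining lists in member pairs were nearer to that of all genes. Their shares in divergent pairs were 10.6% for cytosolic ribosomal protein genes, 40.9% for histone cluster genes and 12.3% for chaperone genes. Of these divergent pairs 3 of 9, 2 of 14 and 2 of 8 had a member peak, beside 59.9% of all annotated pairs. Cytosolic ribosomal protein genes supplied 3 of 85 genes (3.53%), at Rps27/Rab13 (2593 bp), Rpl36al/Mgat2 (2209 bp) and Polr3a/Rps24 (1337 bp), and 5 of their 9 divergent pairs had a peak of this geometry outside the width limits. Histone cluster genes supplied 4 of 66 genes (6.06%), and of their 14 divergent pairs 2 were members, Hist1h2bh/Hist1h3f (2042 bp) and Hist1h2ae/Hist1h2bg (505 bp). The clustered histone genes are near-identical copies, and reads were kept only where they mapped to 1 place, so counts there are uncertain. Of 65 chaperone genes 2 were in member pairs (3.08%), at Tbccd1/Dnajb11 (2598 bp) and Sirt1/Dnajc12 (618 bp). Sirt1 encodes a nuclear deacetylase of the same family as SIRT6, and its start lay 739 bp from that of Dnajc12, a J-domain protein. The peak reached 387 bp into Dnajc12 and ended 509 bp before the start of Sirt1. The counts of these 8 lists are descriptions beside the 4.13% of all genes, and no list was tested. A list's share in member pairs cannot exceed its share in divergent pairs, which comes from the annotation and was 6.78% over all genes.

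Of 20 well-known head-to-head pairs, Hadha/Hadhb was the 1 member. At Brca1/Nbr1 (3404 bp), Atm/Npat (3198 bp) and Wrap53/Trp53 (5200 bp) the starts were divergent and the peak lay over the width limit. Brca1 and Atm act in the repair and signalling of double-strand breaks, and Trp53 encodes the tumor suppressor p53. No peak base lay within 1 kb of either start at Mcm4/Prkdc and Mrps12/Sars2, whose nearest peaks were centred 43352 and 24081.5 bp from the pair centre. Mcm4 encodes a subunit of the replicative helicase. For 11 pairs the outermost annotated starts overlapped head to head, so that they were not divergent by the selection. Among these, Hspd1/Hspe1, the mitochondrial chaperonin and its cochaperonin, had a peak of 4568 bp. Alkbh2/Ung starts were 2168 bp apart, and the genes of Cct4/Fam161a were not on opposite strands of 1 chromosome in this annotation. Including head-to-head overlaps of up to 1000 bp raised the number of members from 452 to 686, and the excess of members above the pooled median width was then 25.4 percentage points.

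Base composition at the peak centres differed between members and single-gene peaks. The CpG ratio of the central 400 bp had a median of 0.781 (quartiles 0.631 and 0.902) in members and 0.635 (quartiles 0.468 and 0.818) in single-gene peaks, with 71.0% and 47.8% above the pooled median (odds ratio 2.68, raw p = 1.77e-21 and adjusted p = 1.06e-20 by Fisher's exact test). The midpoint of a single-gene peak lay 326.5 bp downstream of the start at the median, and 75.1% were downstream, so that the central window often missed the start. With windows of 400 bp around the pair centre or 5′ end, the medians were 0.866 and 0.829 (Fisher's exact test, p = 8.25e-06), and among CpG-rich promoters 0.881 and 0.870 (Fisher's exact test, p = 0.300). The GC content was 59% against 56% at the peak centres (adjusted p = 6.41e-07 by Fisher's exact test), and around the 5′ ends it was 63% against 63.25%, a difference that missed the threshold (p = 0.520 by Fisher's exact test). Among CpG-rich promoters with windows around the 5′ ends the order was reversed, at 63.5% against 64.75% (Fisher's exact test, p = 0.00130).

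Of 10 short motifs, matches to ETS, YY1 and NF-Y were more frequent in members in both kinds of window. ETS factors are a large family of activators, YY1 is a zinc finger protein found at many promoters, and NF-Y binds the CCAAT box. The ETS motif was in the central 400 bp of 100 members (22.1%, 18.5 to 26.2%) and of 14.3% of single-gene peaks (odds ratio 1.71, Fisher's exact test, adjusted p = 6.60e-05), and around the 5′ ends in 35.4% and 27.5% (Fisher's exact test, p = 5.29e-04). The YY1 motif was found in 23 members (5.09%, 3.41 to 7.52%) and in 2.00% of single-gene peaks (odds ratio 2.63, adjusted p = 4.96e-04 by Fisher's exact test), and around the 5′ ends in 8.63% and 5.59% (Fisher's exact test, p = 0.0115). The NF-Y motif was found in 42 members (9.29%, 6.95 to 12.3%) and in 5.47% of single-gene peaks (odds ratio 1.77, adjusted p = 0.00334 by Fisher's exact test), and around the 5′ ends in 17.3% and 11.1%. In windows of that length around all protein-coding 5′ ends, the ETS, YY1 and NF-Y motifs occurred in 13.0%, 2.48% and 9.60%, and around CpG-rich ones in 22.1%, 4.67% and 11.1%.

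The SP1 motif depended on the window. It was in 63 members (13.9%) and 8.96% of single-gene peaks at the peak centres (adjusted p = 0.00221 by Fisher's exact test), but in 22.6% and 24.9% around the 5′ ends (Fisher's exact test, p = 0.302). ACTACAATT, part of the ZNF143 motif, was in 5 members (1.11%) and 0.279% of single-gene peaks (adjusted p = 0.0270 by Fisher's exact test), and it missed the threshold in the central 1000 bp and around the 5′ ends. NRF1 (GCGCATGC), CRE (TGACGTCA), E-box, TATA box (letters TATAAA) and octamer (ATTTGCAT) shares did not differ past the threshold, with 3.98% against 2.86%, 2.21% against 1.61%, 9.73% against 9.45%, 8.85% against 9.43% and 0.664% against 1.05%. CRE and E-box letters read the same on both strands, and no motif contained another. A match is a string of letters, and binding was not measured.

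**Figure D5:**
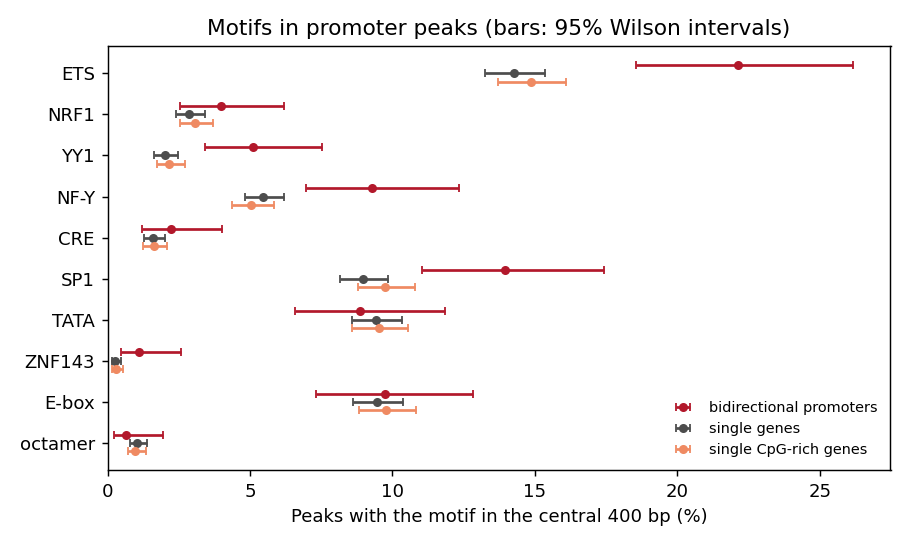
Share of peaks with each motif in the central 400 bp (horizontal axis, %) for bidirectional promoters, single genes and single CpG-rich genes, with 95% Wilson intervals as bars. The intervals of bidirectional promoters lie above those of single genes for ETS, YY1, NF-Y and SP1, and the SP1 difference was not seen in windows around the 5′ ends.

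Within the bases between the 2 starts, the NF-Y motif occurred in 68 of 448 members long enough to hold it (15.2%), ETS in 76 of 448 (17.0%), SP1 in 71 of 447 (15.9%) and YY1 in 5 of 447 (1.12%). The NF-Y matches printed above for Prpf38a/Orc1, Ncapd2/Mrpl51 and Gtf2e1/Rabl3 belong to this set. Members with an ETS match in the central 400 bp had a median width of 2088 bp and those without one of 1705.5 bp, whereas members with a TATA match had a median of 1171.5 bp against 1831.5 bp. A wide spanning peak is centred nearer to the starts than a narrow one-sided peak, and the part of this in the width values was not tested.

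Member peaks had fewer close neighbours. Another peak midpoint lay within 10 kb of 74 members (16.4%, 13.2 to 20.1%) and of 1010 single-gene peaks (23.5%, 22.3 to 24.8%), an odds ratio of 0.637 (raw p = 4.93e-04 and adjusted p = 0.00111 by Fisher's exact test). Within 50 kb the shares were 65.5% and 66.5% (Fisher's exact test, p = 0.676). The nearest other midpoint was 32084 bp away at the median for members and 28908.5 bp for single-gene peaks. The genes of member pairs were slightly shorter, with a median length of 20253 bp against 22745 bp for single genes with a promoter peak, and 46.7% against 50.7% lay above the pooled median (raw p = 0.0308 and adjusted p = 0.0427 by Fisher's exact test).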

How the data were processed

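V6.5 mESC H3K56ac ChIP and input libraries were trimmed and aligned to mm10 by the authors, who called peaks with MACS2, removed blacklisted regions and merged overlapping peaks into 1 consensus set. The deposited file gives positions, and its deposited score is 0 for every peak, so strength, depth and library of origin are unknown. Merging can join neighbouring peaks and thereby widen them. The smallest gap between any 2 peaks was 1000 bp, so no closer peaks stand apart in the set. Widths, reaches and coverage may therefore include bases between joined peaks. The distance over which peaks were joined is not stated. Positions are printed counted from 1. Starts were the outermost 5′ ends of gene records of the GENCODE M21 annotation, with noncoding starts from the same source, and sequence came from the GRCm38 assembly in RefSeq. Shares and counts above a pooled median were compared by two-sided Fisher's exact tests, with Benjamini-Hochberg adjustment over 18 tests. Of these, the 2 tests of width within the limits and that of separation used values of the selection, and their p-values are not printed. They stayed in the family of 18, so the adjusted p-values of other tests can be smaller than in a family without them. An adjustment without them was not run. Python 3.11.15, scipy 1.17.1, pandas 2.3.3 and pysam 0.24.0 were used, and the procedures were tested on simulated data. Members, lists, motifs and tests were chosen with earlier results of these data known. Genes named were the well-known pairs, the extremes of width and separation, and the widest members of each list, and others named for illustration (Sdha, Hscb/Chek2, Palb2, Fancd2, Lig4) were chosen after their values were seen. Some pairs that these rules name are not reported here.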

Additional observations from a re-analysis of the deposited data

How the results depend on the processing

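Of 174 alternatives to the 18 tests, 161 changed neither the sign of the difference nor the call. The 174 include those of the width and separation tests, which used values of the selection. The difference between members and single genes in the share above the pooled median width ran from 24.0 to 26.7 percentage points over 7 alternatives, given as a description. The gap in genes with a peak ran from 22.5 to 49.5 points over 8. Windows around the 5′ ends reversed the GC content difference to -1.70 points, and to -8.34 with CpG-rich promoters only. They reversed SP1 to -2.29 and -3.67 points, and the central 1000 bp left SP1 at 3.80 points, short of the threshold. ZNF143 missed the threshold at 1.14 points with the central 1000 bp, at 0.490 around the 5′ ends and at 0.747 there with CpG-rich promoters only. The CpG ratio difference missed it at 2.82 points in that last setting. E-box, not past the threshold in any setting, turned to -0.695 points with the central 1000 bp and to -0.379 without genes named Gm or Rik. Neighbours within 50 kb gave -0.978 points, and pairs at most 500 bp apart gave 9.99 points for separation. Joint CpG-rich and 5′ end windows, CpG-rich promoters for the CpG ratio, the comparison with divergent noncoding starts for genes with a peak, and leaving out Gm and Rik genes were chosen after seeing the data. The cause of each change was not tested. A stricter score could not be tried because the score was constant. No paired analysis was possible because the file holds no values per library, and for the same reason no library could be left out.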
